A study of Mus musculus with 38 samples.

Results

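The 10 genes described here belong to the smooth muscle contractile apparatus and were followed in whole testes of newborn mice. They were chosen by symbol: *Acta2*, *Myh11*, *Tagln*, *Cnn1*, *Des*, *Actg2*, *Mylk*, *Lmod1*, *Tpm2* and *Myl9*. These 10 genes have 19 of the 45101 probe sets on the array, and 18135 genes in all have a probe set that could be given to 1 gene on an autosome or the X chromosome. No member lies on the X chromosome, and only *Des* and *Lmod1* lie on chromosome 1. Each gene was read from its probe set with the highest mean over all arrays, and its other probe sets are given where they differ.

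Testis RNA was hybridized to Affymetrix mouse genome arrays, with 1 biological replicate on each of 38 arrays. MSM, an inbred strain of *M. m. molossinus* origin, B6-ChrXMSM, which carries an MSM-derived X chromosome on the B6 background, B6-ChrXTMSM, in which MSM replaces the distal part of the X chromosome, and B6 each had 3 males at 5 days postpartum (dpp) and 3 at 7 dpp. XS39-tel had 3 males at 5 dpp. Its label gives no segment, and the study describes an X-chromosomal congenic strain with a more distal MSM-derived piece. (B6-ChrXTMSM x B6-Chr1MSM)F1 males, called F1 here, had 3 arrays at 5 dpp and 8 at 7 dpp. They inherit the X chromosome of B6-ChrXTMSM mothers and 1 MSM-derived chromosome 1. All autosomes of B6-ChrXMSM and B6-ChrXTMSM come from B6, so their probes for the 10 genes match as in B6. The probe sets left out here as polymorphic in MSM are on chromosome 1 and the X chromosome only, the study's scores for other chromosomes were not used here, and for those a probe mismatch and a lower transcript level cannot be told apart in MSM testes.

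Peritubular myoid cells form a thin contractile sheath around each seminiferous tubule and lay down its basement membrane together with Sertoli cells. They contract with the actin and myosin of smooth muscle, and in the mouse testis they are told from other cells by smooth muscle actin. Their differentiation depends on Desert hedgehog from Sertoli cells, on platelet-derived growth factor and, later, on androgen. The smooth muscle and pericytes of testicular vessels use the same contractile genes. Serum response factor (SRF) and its cofactor myocardin switch on many of these genes through a DNA element called the CArG box.

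The promoters of *Acta2* and *Myl9* are shown because theirs were the only member windows with a CArG box or a near match. Windows of 300 bases, from 250 before to 50 after the start, came from RefSeq on GRCm38.p6. They were found for 7 of the 10 genes. *Tagln*, *Actg2* and *Myh11* had none in the table. Capitals mark a CArG box, or a one-off match that keeps the outer pair of C and pair of G and has 1 of the 6 central letters that is neither A nor T, searched on both strands. The *Acta2* window is chr19:34255324-34255623 on the minus strand, and the *Myl9* window is chr2:156775214-156775513 on the plus strand.
Acta2: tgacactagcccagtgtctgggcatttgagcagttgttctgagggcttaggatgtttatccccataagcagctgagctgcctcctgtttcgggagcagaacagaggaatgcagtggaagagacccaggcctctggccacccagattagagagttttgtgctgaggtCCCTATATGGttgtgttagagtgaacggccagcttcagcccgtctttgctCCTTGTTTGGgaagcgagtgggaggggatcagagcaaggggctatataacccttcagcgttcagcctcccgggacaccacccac
Myl9: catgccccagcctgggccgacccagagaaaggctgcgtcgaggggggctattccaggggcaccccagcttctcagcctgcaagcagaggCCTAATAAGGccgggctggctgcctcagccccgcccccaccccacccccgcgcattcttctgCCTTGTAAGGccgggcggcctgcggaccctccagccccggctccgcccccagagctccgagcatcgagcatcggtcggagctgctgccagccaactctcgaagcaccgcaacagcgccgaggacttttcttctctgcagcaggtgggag
*Myl9* held an exact box centred at position -156 from its start and a one-off match at -94. *Acta2* held no exact box and one-off matches at positions -79 and -29. No match of either kind was in the windows of *Cnn1*, *Des*, *Mylk*, *Lmod1* and *Tpm2*. An exact box was in 1 of the 7 windows, against 535 of all 32851 promoters in the table (1.63%), and an exact or one-off match was in 2 of the 7, against 3280 (9.98%). These are matches of letters in the reference sequence and were not tested as binding sites.

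On the log2 scale of the signal, *Acta2*, *Myh11*, *Tagln*, *Tpm2*, *Myl9* and *Mylk* lay above the expression filter (a signal of 10) on all 38 arrays. *Cnn1* was above it on 34 arrays and *Actg2*, the enteric type of gamma actin, on 33. *Lmod1*, which encodes the actin filament nucleator leiomodin, passed on 29 arrays and *Des*, the intermediate filament protein desmin, on 27. *Des* had a group mean above the filter in 8 of the 11 groups and *Lmod1* in 10, while the other 8 genes passed in every group. Of the remaining 9 probe sets, 3 (1456658_at for *Acta2*, 1426732_at for *Des* and 1419739_at for *Tpm2*) never did. Array medians lay between 2.63 and 2.71 and no 2 arrays held identical values, so the number of males limits the precision.

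**Figure D1:**
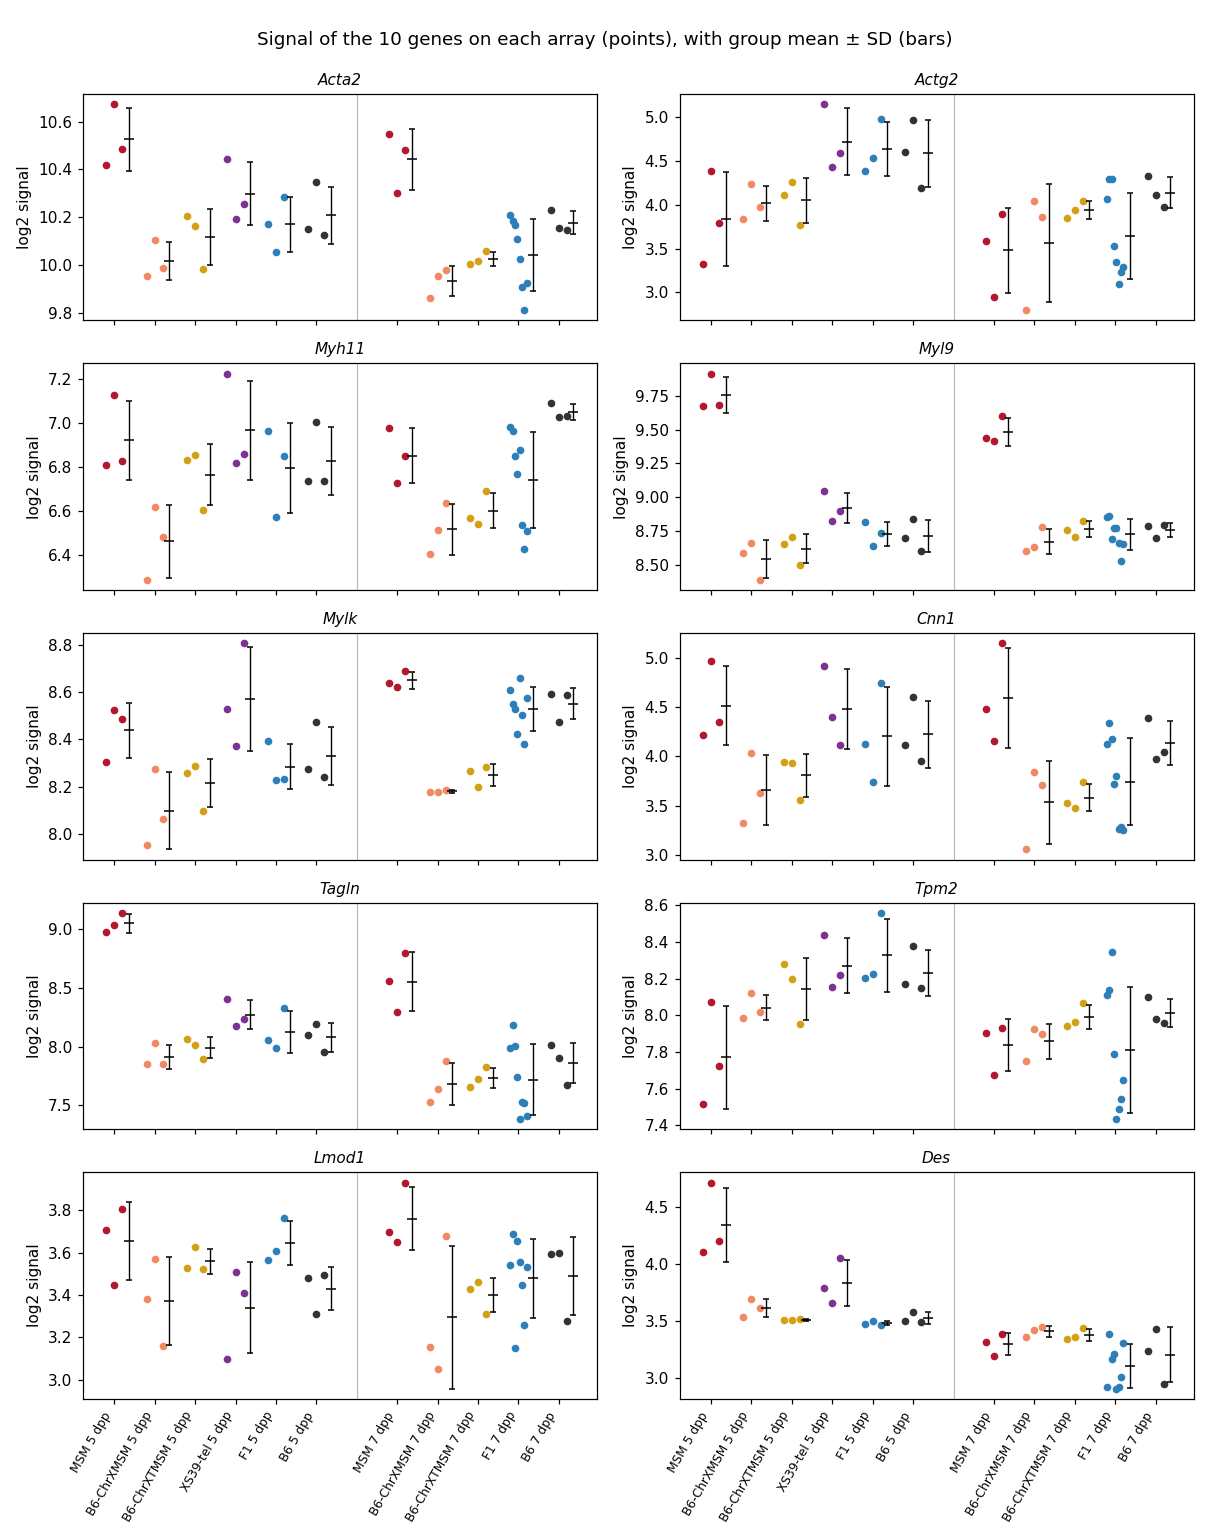
Log2 signal (vertical axis) of each gene on each array (points) by strain and age (horizontal axis), with group mean and SD (bars). MSM males lie above all others of their age for *Tagln* and *Myl9*, and the 8 F1 males of 7 dpp spread widely for *Tpm2*, *Actg2* and *Cnn1*.

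In MSM testes at 5 dpp, *Tagln*, *Myl9* and *Des* were higher than in B6 testes, and *Actg2* was lower. *Tagln*, which encodes the actin-binding protein transgelin, had log2 signals of 8.98, 9.04 and 9.14 in MSM and of 8.10, 8.20 and 7.95 in B6 testes. *Myl9*, the regulatory light chain that is phosphorylated when smooth muscle contracts, had 9.68, 9.92 and 9.68 in MSM and 8.70, 8.84 and 8.60 in B6 testes. All MSM males lay above all B6 males for both genes, and above every male of the other strains at this age. Their log2 fold changes were 0.97 for *Tagln* (SE 0.08, adjusted p = 2.76e-05) and 1.05 for *Myl9* (SE 0.09, adjusted p = 3.51e-05), by the moderated two-sided test of limma over all probe sets kept. *Des* had 4.11, 4.72 and 4.20 in MSM and 3.50, 3.58 and 3.49 in B6 testes. Its ranges did not overlap either, and its log2 fold change was 0.82 (SE 0.15, adjusted p = 0.00148). *Actg2* had 3.33, 4.39 and 3.80 in MSM and 4.61, 4.97 and 4.19 in B6 testes, so its highest MSM male was above the lowest B6 male. The log2 fold change was -0.75 (SE 0.28, adjusted p = 0.0411). In whole testis, a different number of peritubular cells and a different amount of RNA in each cell cannot be told apart.

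Thus 4 of the 10 members, 3 higher and 1 lower, passed the adjusted p and the 1.5-fold limit, and 28.3% of all 17465 probe sets tested did so (16.4% higher and 11.9% lower). By the adjusted p alone 6 members passed, against 66.4% of all probe sets. The median log2 fold change of the members was 0.26, against 0.08 over all probe sets. *Acta2*, smooth muscle actin, had 10.42, 10.67 and 10.48 in MSM and 10.15, 10.35 and 10.12 in B6 testes. No MSM male overlapped with B6, at a log2 fold change of 0.32 (SE 0.09, adjusted p = 0.0158) that is under 1.5-fold. *Tpm2*, which encodes beta-tropomyosin, gave -0.46 (SE 0.14, adjusted p = 0.0185) by its brightest probe set, -0.32 (adjusted p = 0.055) by 1425028_a_at and 0.29 (adjusted p = 0.0363) by 1449577_x_at, so its probe sets disagreed in direction. The second *Acta2* probe set, 1444105_at, also went the other way from the first, at -0.32 (adjusted p = 0.0399). *Myh11*, the smooth muscle myosin heavy chain, *Cnn1*, which encodes calponin, *Mylk*, the kinase of the light chain, and *Lmod1* differed by 0.09 to 0.29 with adjusted p from 0.0859 to 0.478. The call of *Actg2* was lost without MSM replicate 1 (log2 fold change -0.49, adjusted p = 0.139) or replicate 3 (adjusted p = 0.103), without B6 replicate 1 (adjusted p = 0.0862) or replicate 2 (adjusted p = 0.126), and with no filter on low signals (adjusted p = 0.0538). Without MSM replicate 2, *Tpm2* reached -0.61 (adjusted p = 0.00149).

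At 7 dpp, *Tagln* and *Myl9* were again higher and *Actg2* lower in MSM than in B6 testes. *Tagln* had log2 signals of 8.56, 8.30 and 8.80 in MSM and 8.01, 7.90 and 7.67 in B6 testes. *Myl9* had 9.44, 9.41 and 9.60 in MSM and 8.78, 8.69 and 8.79 in B6 testes. *Actg2* had 3.59, 2.95 and 3.90 in MSM and 4.33, 4.11 and 3.98 in B6 testes. The 2 groups did not overlap for any of the 3 genes. Log2 fold changes were 0.69 for *Tagln* (SE 0.13, adjusted p = 0.00249), 0.73 for *Myl9* (SE 0.07, adjusted p = 6.1e-05) and -0.66 for *Actg2* (SE 0.21, adjusted p = 0.028). These were 3 of the 9 members tested, 2 higher and 1 lower, against 17.3% of all probe sets (9.4% higher and 7.89% lower). By the adjusted p alone 5 of 9 members passed, against 57.9%. The group means of *Des* lay below the filter in both strains at this age, with 3.32, 3.19 and 3.38 in MSM and 3.23, 3.43 and 2.95 in B6 testes. Without MSM replicate 3, *Tagln* was at 0.57, under 1.5-fold. *Actg2* was at -0.39 without MSM replicate 2, and its adjusted p was 0.0907 without B6 replicate 1, 0.062 without B6 replicate 2 and 0.0885 in 1 fit over all groups. *Cnn1*, with 4.48, 4.16 and 5.15 in MSM and 4.39, 3.98 and 4.04 in B6 testes, overlapped between the strains and was not called (0.46, adjusted p = 0.117), but reached 0.68 (adjusted p = 0.0223) without MSM replicate 2.

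*Acta2* and *Myh11* were at adjusted p under 0.05 in MSM testes at 7 dpp without a 1.5-fold difference. *Acta2* had 10.55, 10.30 and 10.48 in MSM and 10.23, 10.15 and 10.15 in B6 testes, a log2 fold change of 0.27 (SE 0.08, adjusted p = 0.0162). *Myh11* had 6.98, 6.73 and 6.85 in MSM and 7.09, 7.03 and 7.03 in B6 testes, a log2 fold change of -0.20 (SE 0.07, adjusted p = 0.0462). By these probe sets all MSM males were above B6 for *Acta2* and below B6 for *Myh11*. The second *Myh11* probe set, 1418122_at, went the other way. By it all MSM males (3.90 to 4.05) were above all B6 males (3.52 to 3.78). In all, 6 of 9 members had a positive and 3 a negative log2 fold change between MSM and B6 at this age. *Tpm2* gave -0.18 (adjusted p = 0.0978) by its brightest probe set and 0.55 (adjusted p = 0.000939) by 1449577_x_at.

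**Figure D2:**
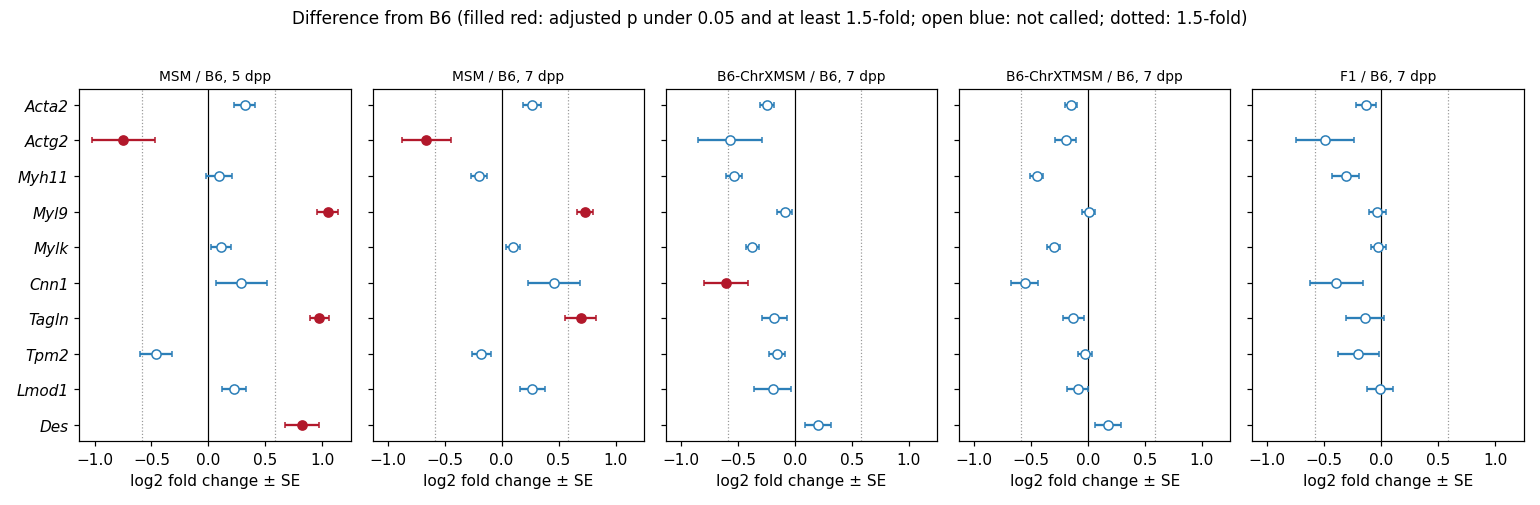
Log2 fold change against B6 with SE (horizontal axis) of each gene (vertical axis) in MSM at 5 and 7 dpp and in B6-ChrXMSM, B6-ChrXTMSM and F1 at 7 dpp. Filled points passed the adjusted p and 1.5-fold, and *Des* is absent where both groups were below the filter. *Tagln* and *Myl9* lie to the right in MSM, while *Myh11* and *Cnn1* lie to the left in both substitution strains.

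Other genes of the smooth muscle apparatus in MSM testes were taken from a list of 29, of which 28 are on the array. Of all probe sets, 28.3% were called at 5 dpp (16.4% higher, 11.9% lower) and 17.3% at 7 dpp (9.4% higher, 7.89% lower). At 5 dpp 8 of the 25 tested from the list were higher and none lower. Their median log2 fold change was 0.25, against 0.08 over all probe sets. The 3 largest were in *Tns1* (1.46), *Csrp1* (1.12) and *Tgfb1i1* (1.01), which encode proteins of focal adhesions and the actin cytoskeleton. At 7 dpp 2 of 24 were higher, *Prkg1* (1.51), the cGMP-dependent kinase that relaxes smooth muscle, and *Csrp2* (1.10). Of SRF and its cofactors, *Myocd*, which encodes myocardin, was lower in MSM testes at both ages (-1.57 and -1.22), and *Mrtfa* (0.98) and *Srf* (0.59) were higher at 5 dpp. For those outside chromosome 1 and the X chromosome no probe set was left out as polymorphic. Among signals to peritubular cells, *Pdgfb* (1.48) and the hedgehog target *Gli1* (1.16) were higher at 5 dpp, while 6 of the 9 genes were below B6 and the median was -0.23. The 9 genes summed to a linear signal of 2128 to 2280 in MSM and 2454 to 2573 in B6 testes at 5 dpp, and 0 of 9 were called at 7 dpp.

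Some markers of vessel walls were also called between MSM and B6 testes, where 28.3% of all probe sets were called at 5 dpp and 17.3% at 7 dpp. Of 6 tested mural cell genes, 2 were higher at 5 dpp, *Mcam* (1.67) and *Kcnj8* (0.80), and 3 at 7 dpp, *Kcnj8* (1.59), *Mcam* (0.76) and *Abcc9* (0.72). At 5 dpp the mural list was split, with 3 genes above and 3 below B6 and a median of 0.02, and at 7 dpp 5 were above and 1 below with a median of 0.54. Summed over 8 genes, the linear signal of mural markers was 299 to 335 in MSM and 202 to 243 in B6 testes at 5 dpp. Most of this difference came from *Mcam*, with mean log2 signals of 6.93 in MSM and 5.26 in B6 testes. At 7 dpp the sums were 242 to 262 in MSM and 168 to 188 in B6 testes. *Higd1b* and *Gja4* were below the filter in every group. Endothelial markers summed to 250 to 299 in MSM and 201 to 233 in B6 testes at 5 dpp, with 3 of 8 higher, *Pecam1* (0.66), *Emcn* (0.66) and *Cdh5* (0.63). At 7 dpp they summed to 204 to 214 in MSM and 151 to 169 in B6 testes, with 2 of 7 higher, *Emcn* (1.44) and *Esam* (0.64). The part of vessel walls in the MSM values of the 10 genes was not tested. Skeletal muscle genes were below the filter in all groups for 13 of 14, and the exception, *Actn2*, was higher in MSM testes at 7 dpp (0.99).

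Remaining cell types are given for MSM against B6, where 28.3% of all probe sets were called at 5 dpp and 17.3% at 7 dpp. Germ cell genes were higher in 5 of 10 at 5 dpp (*Uchl1* 1.83), with 2 higher and 1 lower at 7 dpp. Of 10 Sertoli cell genes 3 were higher at 5 dpp, among them *Amh* (1.56) and *Gata4* (1.41), and 1 was lower, *Sox9* (-1.77). At 7 dpp 1 of 10 was higher and 2 were lower. *Cyp11a1* of Leydig cells was lower at both ages (-1.44 and -0.67), 1 of 6 macrophage genes was lower at 5 dpp (*Csf1r* -0.89) and 0 of 5 were called at 7 dpp. Among interstitial fibroblast genes *Cd34* was higher at 5 dpp (0.75), and *Lum* (1.14) and *Nr2f1* (0.84) at 7 dpp. Epididymal and adipose lists had *Hoxa9* (1.38), *Car3* (4.38) and *Fabp4* (3.80) higher at 7 dpp and *Lpl* lower at 5 dpp (-0.60). B6 testes of 7 dpp had the lowest mean of all 11 groups for *Hoxa9* (2.94), *Car3* (1.34) and *Fabp4* (1.65).

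In strains with an MSM-derived X chromosome on the B6 background fewer members were called. At 5 dpp no member was called in B6-ChrXMSM testes, where 1.68% of all probe sets were, or in B6-ChrXTMSM testes, where 0.307% were. The members' median log2 fold change was -0.19 in B6-ChrXMSM and -0.09 in B6-ChrXTMSM, against -0.00 and -0.01 over all probe sets, and 9 of 10 were below B6 in each strain. The 2 comparisons share the B6 arrays. Most of the 10 genes varied together between males of a group, so their directions are not separate observations. The farthest from B6 in B6-ChrXMSM testes were *Actg2* (-0.57, SE 0.19, adjusted p = 0.131) and *Cnn1* (-0.56, SE 0.21, adjusted p = 0.176), with *Myh11* at -0.36 (SE 0.11, adjusted p = 0.0971). *Myh11* had 6.29, 6.62 and 6.48 in B6-ChrXMSM and 6.74, 7.00 and 6.74 in B6 testes, without overlap. By 1418122_at the groups overlapped, with 3.70 to 3.88 in B6-ChrXMSM and 3.73 to 4.03 in B6 testes. Of the second probe sets, *Acta2* 1444105_at was at -0.56 (adjusted p = 0.032), just under 1.5-fold. Germ cell genes were lower in 8 of 10 in B6-ChrXMSM and in 0 of 10 in B6-ChrXTMSM testes at this age, and summed to 210 to 434 in B6-ChrXMSM, 563 to 729 in B6-ChrXTMSM and 763 to 836 in B6 testes. Their part in the values of the 10 genes was not tested.

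In XS39-tel testes at 5 dpp 9 of 10 members were above B6, with a median log2 fold change of 0.17, against 0.00 over all probe sets. The B6 arrays are those also compared with B6-ChrXMSM and B6-ChrXTMSM, and the members' directions are not separate observations. No member was called, and 0.649% of all probe sets were. *Des* had the largest value (0.31, SE 0.11, adjusted p = 0.214), with 3.79, 3.65 and 4.05 in XS39-tel and 3.50, 3.58 and 3.49 in B6 testes. All 3 XS39-tel males were above B6 for *Des*. *Myl9* had 9.04, 8.82 and 8.90 in XS39-tel and 8.70, 8.84 and 8.60 in B6 testes, an overlap of 1 male from each group (0.21, adjusted p = 0.297).

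At 7 dpp *Cnn1* was lower in B6-ChrXMSM testes, and *Myh11*, *Mylk* and *Acta2* were at adjusted p under 0.05 with smaller differences. *Cnn1* had 3.06, 3.84 and 3.71 in B6-ChrXMSM and 4.39, 3.98 and 4.04 in B6 testes, a log2 fold change of -0.60 (SE 0.20, adjusted p = 0.0386). *Myh11* had 6.41, 6.51 and 6.64 in B6-ChrXMSM and 7.09, 7.03 and 7.03 in B6 testes, a log2 fold change of -0.53 (SE 0.07, adjusted p = 0.000759). *Mylk* had 8.18, 8.18 and 8.19 in B6-ChrXMSM and 8.59, 8.48 and 8.59 in B6 testes, a log2 fold change of -0.37 (SE 0.06, adjusted p = 0.00161). *Acta2* had 9.86, 9.95 and 9.98 in B6-ChrXMSM and 10.23, 10.15 and 10.15 in B6 testes, a log2 fold change of -0.25 (SE 0.06, adjusted p = 0.0123). By the brightest probe sets every B6-ChrXMSM male was below every B6 male for these 4 genes. Of 10 members 1 was called, against 6.08% of all probe sets, and 4 passed the adjusted p alone, against 40.1%. The median was -0.22, against 0.01 over all probe sets, with 9 of 10 below B6, and these directions are not separate observations. The call of *Cnn1* was lost without B6-ChrXMSM replicate 1 (-0.36, adjusted p = 0.0611), without B6 replicate 1 (adjusted p = 0.12), 2 (adjusted p = 0.0517) or 3 (adjusted p = 0.0711), and in 5 other settings. Without B6-ChrXMSM replicate 3, *Myh11* reached -0.59 (adjusted p = 0.000853).

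In B6-ChrXTMSM testes of 7 dpp these 4 genes were also below B6, each by less than 1.5-fold. *Cnn1* had 3.53, 3.48 and 3.74 in B6-ChrXTMSM and 4.39, 3.98 and 4.04 in B6 testes, a log2 fold change of -0.56 (SE 0.12, adjusted p = 0.00703). *Myh11* had 6.57, 6.54 and 6.69 in B6-ChrXTMSM and 7.09, 7.03 and 7.03 in B6 testes, a log2 fold change of -0.45 (SE 0.06, adjusted p = 0.0011). Log2 fold changes were -0.30 for *Mylk* (SE 0.06, adjusted p = 0.0048) and -0.15 for *Acta2* (SE 0.05, adjusted p = 0.0479), and no B6-ChrXTMSM male overlapped with B6 for any of the 4. None reached 1.5-fold, so 0 of 10 were called, against 5.73% of all probe sets, while 4 passed the adjusted p alone, against 42%. The median was -0.14, against 0.02 over all probe sets. *Cnn1* passed 1.5-fold without B6-ChrXTMSM replicate 3 (-0.64), without B6 replicate 2 (-0.64) and without B6 replicate 3 (-0.60). The comparisons of the 2 strains with B6 share the 3 B6 arrays. The other *Mylk* probe sets also lay below B6. In B6-ChrXMSM testes 1425506_at was at -0.29 (adjusted p = 0.0105) and 1425504_at at -0.18 (adjusted p = 0.0525). In B6-ChrXTMSM testes they were at -0.21 (adjusted p = 0.036) and -0.32 (adjusted p = 0.0209). By the second *Myh11* probe set, 1418122_at, B6-ChrXMSM (3.27 to 3.84) and B6-ChrXTMSM (3.44 to 3.66) overlapped with B6 (3.52 to 3.78). *Acta2* 1444105_at overlapped too, with means below the filter of 2.79 in B6-ChrXMSM, 3.23 in B6-ChrXTMSM and 3.14 in B6 testes.

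None of 24 other smooth muscle genes tested and none of 7 genes of SRF and its cofactors was called in either substitution strain at 7 dpp. Of all probe sets, 6.08% were called in B6-ChrXMSM and 5.73% in B6-ChrXTMSM testes. Median log2 fold changes of the smooth muscle genes were -0.02 in B6-ChrXMSM and 0.07 in B6-ChrXTMSM testes. Among signals to peritubular cells all 8 tested genes were above B6 in both strains, with medians of 0.32 in B6-ChrXMSM and 0.38 in B6-ChrXTMSM testes. By the adjusted p alone 8 passed in B6-ChrXMSM and 7 in B6-ChrXTMSM testes, against 40.1% and 42% of all probe sets. Only *Pdgfa* (0.65), the growth factor that Sertoli cells send to peritubular cells, and *Hhip* (0.60), an inhibitor of hedgehog signals, were called, both higher in B6-ChrXTMSM testes. No mural, endothelial, fibroblast, macrophage, epididymal or Sertoli cell gene was called in either strain at this age. Mural markers summed to 172 to 182 in B6-ChrXMSM, 187 to 192 in B6-ChrXTMSM and 168 to 188 in B6 testes. Germ cell genes were lower in 9 of 10 in each strain, and summed to 549 to 727 in B6-ChrXMSM, 561 to 889 in B6-ChrXTMSM and 1562 to 1740 in B6 testes. *Cyp11a1* (0.72) and *Hsd3b1* (0.66) of Leydig cells were higher in B6-ChrXTMSM testes. The adipocyte genes *Car3* and *Fabp4* were higher in both strains, by 3.64 and 2.51 in B6-ChrXMSM and by 4.31 and 2.71 in B6-ChrXTMSM testes. Both had group means above the filter in 10 of the 11 groups, and the exception was B6 at 7 dpp (1.34 and 1.65). The part of the other cell types in the values of the 10 genes was not tested.

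No member was called in F1 testes against B6 or B6-ChrXTMSM at the same age. At 5 dpp 0 of 10 were called against B6 (0.54% of all probe sets), with a median of -0.00, and 0 of 10 against B6-ChrXTMSM (0.0483%), with a median of 0.10. At 7 dpp 0 of 9 were called against B6 (1.72%) and 0 of 10 against B6-ChrXTMSM (0.325%). All 9 members tested against B6 at 7 dpp had negative log2 fold changes, which are not separate observations. Their median was -0.14, against 0.01 over all probe sets. *Actg2* was the largest at -0.50 (SE 0.26, adjusted p = 0.236), with a lowest, median and highest signal of 3.10, 3.44 and 4.29 in the 8 F1 males, against 4.33, 4.11 and 3.98 in B6 testes. The F1 range enclosed most of the B6 range. By its brightest probe set *Mylk* was higher in every F1 male (lowest 8.38, median 8.54, highest 8.66) than in B6-ChrXTMSM testes (8.27, 8.20 and 8.28). The log2 fold change was 0.28 (SE 0.07), with an adjusted p of 0.0683 by limma. The groups overlapped by the other *Mylk* probe sets. By 1425506_at F1 males had 8.21 to 8.51 and B6-ChrXTMSM testes 8.18 to 8.32. By 1425504_at they had 3.34 to 3.94 and 3.27 to 3.58. The labels do not divide the 8 males, so they were used as 1 group. Germ cell genes in F1 testes at 7 dpp summed to 793 to 1704, against 1562 to 1740 in B6 testes, and their part was not tested.

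Between 5 and 7 dpp most of the 10 genes moved little. *Des* fell in MSM testes, to 3.32, 3.19 and 3.38 at 7 dpp, against 4.11, 4.72 and 4.20 at 5 dpp, without overlap. Its log2 fold change was -1.05 (SE 0.15, adjusted p = 0.000587), and its 7 dpp mean is below the filter, so the size is set by a weak signal. *Actg2* fell in F1 testes, to a lowest, median and highest of 3.10, 3.44 and 4.29 at 7 dpp, against 4.39, 4.53 and 4.98 at 5 dpp. No 7 dpp male reached the 5 dpp range, and the log2 fold change was -0.99 (SE 0.27, adjusted p = 0.0229 by limma). The adjusted p was 0.0781 without F1 5 dpp replicate 2 and 0.119 without F1 5 dpp replicate 3. These were the only calls of the representative probe sets among the 5 strains with both ages.

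With age, 0 of 10 members were called in B6 testes (8.34% of all probe sets), 1 in MSM (14.7%), 0 in B6-ChrXMSM (2.48%), 0 in B6-ChrXTMSM (0.839%) and 1 in F1 testes (5.59%). By the adjusted p alone 4 passed in B6 testes (47.2% of all probe sets), with *Myh11* (0.22, adjusted p = 0.0475) and *Mylk* (0.22, adjusted p = 0.0376) above and *Des* (-0.32, adjusted p = 0.0481) and *Tpm2* (-0.22, adjusted p = 0.0457) below their level at 5 dpp. In MSM testes 3 passed (50.8%), with *Tagln* at -0.50 (adjusted p = 0.00843) and *Myl9* at -0.27 (adjusted p = 0.0353) beside *Des*. In F1 testes 3 passed (19.4%), with *Des* at -0.37 (adjusted p = 0.0308) and *Mylk* at 0.24 (adjusted p = 0.0364) beside *Actg2*. By its brightest probe set *Mylk* had positive values in all 5 strains, from 0.03 to 0.24, and *Tagln* had negative ones, from -0.50 to -0.22. The other *Mylk* probe sets did not share this rise. By 1425506_at the mean was lower at 7 than at 5 dpp in every strain but B6 (8.45 at 5 dpp and 8.47 at 7 dpp). By 1425504_at it was lower at 7 dpp in all 5 strains, with 3.94 at 5 dpp and 3.79 at 7 dpp in B6 testes. Medians of the members were between -0.27 in F1 and -0.06 in B6 testes, against -0.00 and 0.02 over all probe sets. Another 3 calls came with 1 array left out: *Actg2* in B6 without 5 dpp replicate 3 (-0.65), *Tagln* in MSM without 7 dpp replicate 3 (-0.62) and *Tpm2* in F1 without 7 dpp replicate 3 (-0.59).

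**Figure D3:**
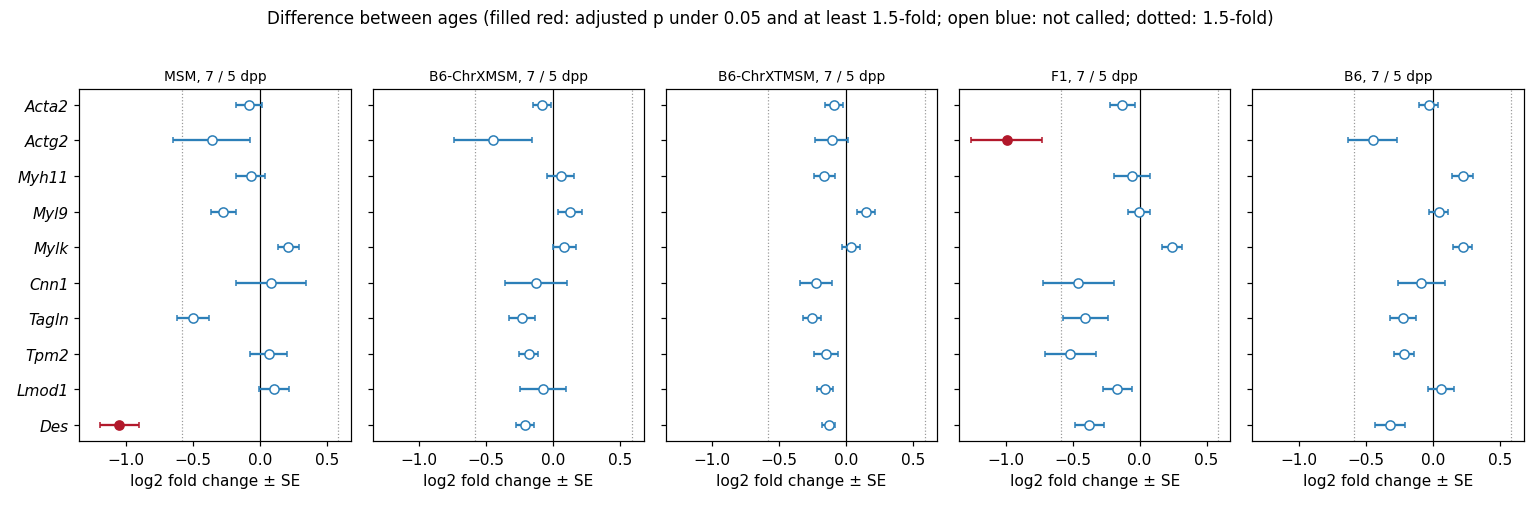
Log2 fold change of 7 over 5 dpp with SE (horizontal axis) of each gene (vertical axis) in the 5 strains with both ages. Filled points passed the adjusted p and 1.5-fold, which were *Des* in MSM (-1.05) and *Actg2* in F1 (-0.99).

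Other lists were also followed between 5 and 7 dpp. Of all probe sets, 4.16% were called higher and 4.18% lower at 7 dpp in B6 testes. These shares were 7.59% and 7.13% in MSM, 1.33% and 1.15% in B6-ChrXMSM testes. They were 0.272% and 0.567% in B6-ChrXTMSM, and 2.96% and 2.63% in F1 testes. In B6 testes *Pdlim3*, which encodes a protein of the Z-disc and stress fibres, was the 1 of 25 smooth muscle genes that was lower at 7 dpp (-0.82), and it was also lower in B6-ChrXMSM (-0.65) and F1 testes (-0.66). In MSM testes 6 of 25 fell, with *Tns1* (-1.02) and *Flna* (-1.02) foremost, and 2 rose, with *Prkg1* at 1.00. Signals to peritubular cells fell in 3 of 9 genes in B6 testes, *Pdgfa* (-1.04), the receptor gene *Pdgfrb* (-1.02) and *Hhip* (-0.73), in 4 of 9 in MSM, in 3 of 9 in F1, in 1 of 9 in B6-ChrXMSM and in 0 of 9 in B6-ChrXTMSM testes. Fibroblast genes fell in 6 of 10 in B6 (*Lum* -1.78), 5 of 10 in MSM and 4 of 10 in F1 testes. They fell in 2 of 9 in B6-ChrXMSM and 2 of 9 in B6-ChrXTMSM testes. Germ cell genes rose in 9 of 10 in F1, 6 of 10 in B6-ChrXMSM, 4 of 10 in MSM, 0 of 10 in B6-ChrXTMSM and 9 of 10 in B6 testes. Adipose markers summed to 425 to 453 in B6 testes at 7 dpp and 602 to 2954 at 5 dpp. The 3 *Hox* genes of the epididymal list fell in B6 testes (*Hoxa9* -1.54). *Lcn5*, *Lcn8* and *Adam7* of that list were below the filter in every group, and whether they report duct tissue at these ages was not tested. The part of adipose and duct tissue in the age values of the 10 genes was not tested.

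The age difference itself differed between MSM and B6 testes for *Des*. The strain by age term, the MSM age difference minus that of B6, was -0.73 (SE 0.21, adjusted p = 0.0177), and 1 of 10 members was called, against 12.1% of all probe sets. Without MSM 5 dpp replicate 2 it was -0.54 (adjusted p = 0.019), under 1.5-fold. No member was called in the terms of B6-ChrXMSM (1.4% of all probe sets), B6-ChrXTMSM (5.18%) and F1 (0.0117%). *Myh11* gave -0.39 (SE 0.12, adjusted p = 0.0374) in B6-ChrXTMSM, under 1.5-fold. The second *Myh11* probe set, 1418122_at, had 3.90, 3.97 and 4.05 in MSM testes at 7 dpp and 3.42, 3.83 and 3.56 at 5 dpp, and 3.78, 3.52 and 3.65 in B6 testes at 7 dpp and 3.73, 3.96 and 4.03 at 5 dpp. Its strain by age term was 0.63 (SE 0.16, adjusted p = 0.00907), whereas the brighter *Myh11* probe set gave -0.29 (adjusted p = 0.125). The term of 1418122_at was under 1.5-fold without MSM 5 dpp replicate 1 (0.53), B6 7 dpp replicate 2 (0.56) or B6 5 dpp replicate 3 (0.57).

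Groups were ordered by mean, with each gene read from its brightest probe set. MSM was first without overlap with the next group by mean for *Tagln* and *Myl9* at both ages and for *Des* at 5 dpp. The same held for *Acta2*, *Mylk* and *Lmod1* at 7 dpp. MSM was also first, but with overlap, for *Acta2* and *Lmod1* at 5 dpp and for *Cnn1* at both ages. At 7 dpp the highest F1 male was above the lowest MSM male for *Mylk* (8.66 in F1 and 8.62 in MSM) and for *Lmod1* (3.69 in F1 and 3.65 in MSM). *Myh11* was highest in B6 at 7 dpp, again without overlap. By its second probe set, 1418122_at, MSM was highest at 7 dpp (mean 3.97, against 3.65 in B6). At 7 dpp *Mylk* ran MSM, B6, F1, B6-ChrXTMSM and B6-ChrXMSM, and only B6 and F1 overlapped among these neighbours. The first place of MSM for *Mylk* depended on the probe set. By 1425506_at B6 (mean 8.47) was above MSM (8.43), with overlap, and by 1425504_at B6 (3.79) was also above MSM (3.70). *Acta2* at 7 dpp had B6-ChrXTMSM above B6-ChrXMSM without overlap, and its other neighbours below MSM overlapped. For *Cnn1* every pair of neighbours overlapped at both ages.

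Males of 1 group differed in most of the 10 genes together. After each group mean was subtracted, the 38 deviations of *Acta2* had a Pearson r of 0.92 with the mean deviation of the other 9 genes (Spearman rho 0.92, and r 0.91 without the 2 farthest arrays). The value was 0.90 for *Actg2*, 0.89 for *Cnn1*, 0.84 for *Tagln* and *Tpm2*, 0.80 for *Myh11* and 0.75 for *Myl9*. It was lower for *Des* (0.43), *Mylk* (0.39) and *Lmod1* (0.07). Of the 45 pairs of genes 44 had a positive r, with a median of 0.51, a range from -0.11 to 0.92 and the highest value between *Acta2* and *Myh11*. The deviations come from the same 38 arrays, so anything that differs between arrays is shared by all genes, and the values are given as a description.

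**Figure D4:**
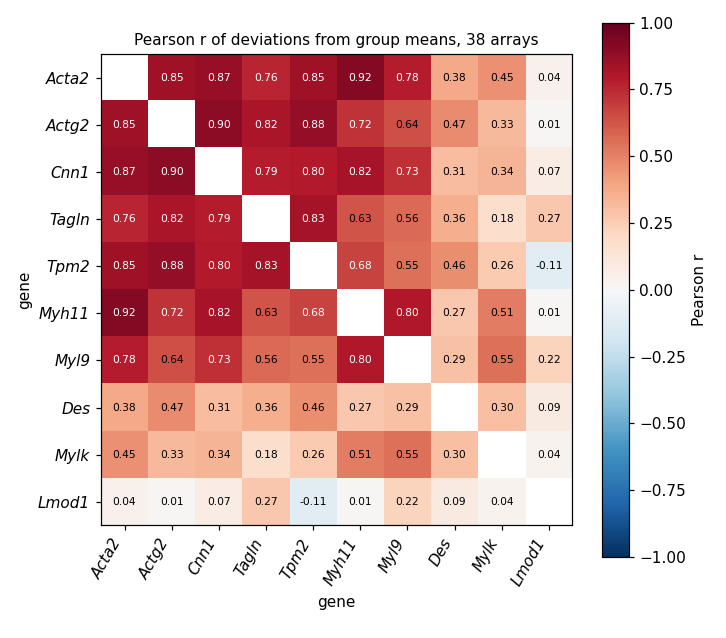
Pearson r between genes (both axes) of deviations from group means over 38 arrays, with colour from blue (negative) to red (positive). *Acta2*, *Actg2*, *Cnn1*, *Tagln*, *Tpm2*, *Myh11* and *Myl9* form a block of high values, and *Lmod1* lies near 0 with most genes.

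Among the 8 F1 males of 7 dpp, replicates 1, 2 and 3 had 9, 10 and 8 of the 10 genes above the group mean. Replicates 6, 7 and 8 of this group had 0, 0 and 3. The mean deviation over the genes ran from -0.25 in replicate 7 to 0.31 in replicate 2 on the log2 scale. *Tpm2* had a lowest, median and highest signal of 7.43, 7.72 and 8.35 in these males, against 8.10, 7.98 and 7.96 in B6 testes, so single F1 males lay on both sides of all B6 males. In groups of 3, B6-ChrXMSM replicate 1 of 7 dpp had 0 and replicate 3 had 10 of the 10 genes above its group mean, and MSM replicate 2 of 7 dpp had 0.

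Among other lists, the mean deviation of 25 smooth muscle genes followed that of the members (r 0.78), and so did, less closely, that of 4 epididymal list genes (0.68), 10 fibroblast genes (0.57), 8 endothelial genes (0.51), 6 macrophage genes (0.46) and 6 mural cell genes (0.38). Adipose markers (0.26), SRF and its cofactors (0.24) and germ cells (0.06) were nearer 0. Values were negative for signals to peritubular cells (-0.20), Sertoli cells (-0.25) and Leydig cells (-0.52). The 4 epididymal list genes above the filter include *Hoxa9*, *Hoxd9* and *Hoxd10*. *Lcn5*, *Lcn8* and *Adam7* of the same list were below it. What part the makeup of the dissected tissue has in the common deviation of the 10 genes was not tested.

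Outside the 10 genes, those whose deviations followed the members' mean most closely over the 38 arrays were *Myom1* (r 0.84) and *Tnnt1* (0.83), which encode proteins of the striated muscle sarcomere, *Ckb* (0.82), the brain type of creatine kinase, and *Bmp4* (0.82), a growth factor of the BMP family. The collagen genes *Col6a3* (0.80), *Col14a1* (0.79) and *Col8a2* (0.79) came next, with *Dpep1* (0.79), *Gm266* (0.79) and *Lratd2* (0.78). *Myom1*, *Tnnt1*, *Dpep1* and *Gm266* had mean log2 signals of 3.47, 3.57, 3.52 and 2.76, close to or below the filter.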

How the data were processed

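The authors normalized the perfect-match probes of 38 arrays with RMA in GeneSpring GX (version not given in the sources used here), and the log2 signals used here are their deposited values, 1 per probe set. No value was changed. Of all probe sets, 34958 had 1 gene in the platform annotation, 932 several and 9211 none; 34871 with 1 gene on an autosome or the X chromosome were used, without 258 polymorphic ones on the X chromosome and, where MSM or F1 was compared, 728 on chromosome 1. Value columns of no sample numbered 0.

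The moderated two-sided test of limma 3.58.1 (R 4.3.3) was run on each pair of groups, keeping a probe set if either mean signal exceeded 10 on the linear scale. Probe sets with an adjusted p (Benjamini-Hochberg) under 0.05 that differed at least 1.5-fold were called. The strain by age terms used 4 groups. The scripts were tested on simulated data. Replicates are labelled biological.

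Named are all 10 members, at most 3 called genes of largest change per list and comparison, and the 10 genes with deviations most like the members' mean. The lists were smooth muscle, SRF and cofactors, signals to peritubular cells, fibroblast, mural cell, endothelium, skeletal muscle, epididymis, adipose tissue, Sertoli cell, Leydig cell, germ cell and macrophage. Members and lists were chosen with earlier results of these data known, so p-values are given only over all probe sets. Alternatives were 1 fit over all groups, no filter, a filter at 20, array medians subtracted, quantile normalization repeated, polymorphic probe sets kept, a replicate block, and each array left out.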

Additional observations from a re-analysis of the deposited data

Results flagged for a closer look

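For *Des*, the change with age differed between MSM and B6 testes by the test of the difference itself. The strain by age term was -0.73 on the log2 scale (adjusted p = 0.0177 by limma). Its mean signal at 7 dpp was below the expression filter in both strains.

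The second *Myh11* probe set, 1418122_at, also differed between MSM and B6 testes in its change with age, with a term of 0.63 (adjusted p = 0.00907 by limma). All 3 MSM males of 7 dpp lay above all 3 of 5 dpp, whereas the B6 males of 7 dpp overlapped with those of 5 dpp. The brighter *Myh11* probe set did not share this direction, so the 2 probe sets of the gene disagree. No sample of the 8 F1 males of 7 dpp stood apart for any member, with a highest Dixon ratio of 0.370 for *Myl9*. No cause was tested for either result.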

How the results depend on the processing

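No result reversed under any alternative. The count of members called in B6-ChrXMSM against B6 testes at 7 dpp, 1 in the main result, was 0 with 1 fit over all groups, with no low-value filter, with the filter at 20, with array medians subtracted, with quantile normalization repeated and with the replicate block. The age count of F1 testes, 1 in the main result, was 0 with the replicate block, where *Actg2* had an adjusted p of 0.0525. With single arrays left out, the counts ran from 0 to 2 for B6-ChrXMSM against B6 at 7 dpp, 0 to 1 for B6-ChrXTMSM against B6 at 7 dpp, 0 to 1 for age in B6, 1 to 2 for age in MSM, 0 to 2 for age in F1 and 0 to 1 for strain by age in MSM and B6. All other counts stayed within 1.5 times the main count under every alternative. *Myl9* at both ages, *Tagln* and *Des* in MSM against B6 at 5 dpp and *Des* with age in MSM kept their call in 13 of 13 alternatives, and *Actg2* in MSM against B6 kept it in 8 of 13 at 5 dpp and 8 of 12 at 7 dpp. *Cnn1* in B6-ChrXMSM testes kept it in 3 of 12. The counts out of 12 leave out the filter at 20, under which *Cnn1* and, at 7 dpp, *Actg2* were not tested. The cause of the lost calls was not tested. Replicate numbers did not pair the males: in 0 of 16 comparisons were the deviations of every same-numbered pair correlated above 0.1, so they were taken as names only. No count of 0 shows that a gene did not differ, since 3 males a group limit the precision, and *Des*, *Lmod1*, *Cnn1* and *Actg2* had signals near the filter on part of the arrays.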
